A study of Mus musculus with 17 samples.

Results

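The genes described here are 8 cadherins, Cdh16, Cdh1, Cdh2, Cdh3, Cdh5, Cdh6, Cdh11 and Cdh13, taken by gene symbol from 35971 genes measured in mouse kidney. Cdh16 was included because its promoter, called Ksp, drives the Cre recombinase of the mouse line, and the others because they are the cadherins best known from kidney epithelium, endothelium and stroma. All 8 were among the 17011 genes that passed the filter on low counts. Kidney tissue of 17 mice at the age of 8 months gave 17 strand-specific polyA RNA libraries, read from one end for 75 nt. Every mouse carried the lsl-PRCC-TFE3 KI allele, in which a stop cassette flanked by lox sites keeps the PRCC-TFE3 fusion silent until Cre removes it. The Cre(-) group held 4 mice without KSP-Cre, of which replicates 1 and 2 carried HIF1af/f and replicates 3 and 4 no flox allele. The KI group held 3 mice with KSP-Cre and no flox allele, the Hif1a KO group 4 mice with KSP-Cre and HIF1af/f, the Hif2a KO group 3 mice with KSP-Cre and HIF2af/f, and the DKO group 3 mice with KSP-Cre and both flox alleles. The Ksp promoter is active in tubule and collecting duct epithelium, so bulk kidney RNA also contains cells in which neither allele is recombined.

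Cadherins are adhesion proteins of the cell surface that bind to cadherins on the neighbouring cell in a calcium-dependent way. The classical members (Cdh1, Cdh2, Cdh3, Cdh5, Cdh6 and Cdh11) reach through the membrane and hold beta-catenin and p120-catenin on the inside, which ties the junction to actin. Cdh16 is a kidney-specific cadherin of the lateral membrane of tubule cells with a short inner tail, and Cdh13 has no inner part and is held by a lipid anchor. Each kidney cell type carries its own set, with Cdh5 in endothelium and Cdh11 in mesenchymal cells, and gains or losses of single cadherins are used to describe changes of epithelial state in renal carcinoma.

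Total counts per library ranged from 16504419 to 24668827, and no library was identical to another. The Hif1a gene stood at 184 to 232 CPM in KI, 163 to 198 in Hif1a KO and 174 to 203 in DKO kidneys. Epas1, the gene of Hif2a, stood at 173 to 192 CPM in KI, 137 to 149 in Hif2a KO and 156 to 165 in DKO kidneys. Neither targeted gene passed the test against KI (Hif1a in Hif1a KO, log2 fold change -0.21 ± 0.13, adjusted p = 0.372; Epas1 in Hif2a KO, -0.33 ± 0.09, adjusted p = 0.0788), and sums over whole genes do not show the removal of single exons. The library numbers largely follow the groups, so library order and genotype cannot be told apart. Here CPM means counts per 1000000 of the TMM-scaled library size, TPM is normalised for transcript length, errors of levels are SD, errors of log2 fold changes are standard errors, and an adjusted p is from the quasi-likelihood test of edgeR, adjusted by Benjamini-Hochberg over all 17011 genes.

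In the mouse build GRCm38, 6 of the 8 genes lie on chromosome 8. From left to right these are Cdh11 (102632095 to 102785642, minus strand), Cdh5 (104101625 to 104144511, plus), Cdh16 (104601911 to 104624396, minus), Cdh3 (106510891 to 106557297, plus), Cdh1 (106603351 to 106670246, plus) and Cdh13 (118283733 to 119324921, plus). Cdh3 and Cdh1 lie on the same strand, 46053 bases apart, with 1 other listed gene between them. Cdh6 lies on chromosome 15 (13028701 to 13173675, minus) and Cdh2 on chromosome 18 (16588877 to 16809246, minus). Only Cdh13 overlaps another annotated gene, Gm45722, on the opposite strand.

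Cdh6 had the largest log2 fold change of the 8 in KI against Cre(-) kidneys, and it was the 1 member of 8 found in the RefSeq promoter table. The 250 bases before its start (GRCm38.p6, chr15:13173676-13173925, minus strand) are shown for that reason, with capitals marking the E-box core CANNTG at position -15 from the start and the overlapping pair of GC boxes (GGGCGG) at -84 and -80.

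Cdh6 promoter: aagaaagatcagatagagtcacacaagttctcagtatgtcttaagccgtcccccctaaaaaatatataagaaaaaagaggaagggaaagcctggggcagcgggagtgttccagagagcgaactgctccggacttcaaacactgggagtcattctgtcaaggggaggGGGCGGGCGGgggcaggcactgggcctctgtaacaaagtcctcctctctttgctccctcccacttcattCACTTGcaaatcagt

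Of 32817 promoters of the same length, 66.2% held CANNTG and 32.7% held GGGCGG on either strand. The M-box forms of the TFE family (TCACGTGA, TCACATGA and TCATATGA) were found in 0.786%, 0.847% and 0.271% of promoters, the E-box CACGTG in 6.02%, and the HIF core letters ACGTG and GCGTG in 16.6% and 28.1%, all on both strands, with ACGTG also contained in CACGTG and in TCACGTGA. None of these last 6 was found in the 250 bases shown.

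Cdh16 was the most abundant of the 8 in every library. On the TPM scale, which allows levels of different genes to be compared, Cdh16 stood at 642 to 710 in Cre(-) kidneys and ranked 95 among all genes by mean TPM. Cdh1 followed at 68.0 to 77.5 TPM. Cdh5 stood at 11.7 to 18.8 TPM, Cdh6 at 5.25 to 6.84, Cdh3 at 3.34 to 5.30, Cdh11 at 3.14 to 5.87, Cdh13 at 3.23 to 5.17 and Cdh2 at 2.04 to 3.71. The last 4 have overlapping ranges.

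The makeup of the summed TPM of the 8 genes differed between groups. Cdh16 made up 85.4% to 86.7% of it in Cre(-) kidneys and 70.5% to 76.1% in KI kidneys, and the share in the knockout groups lay between 74.2% and 81.7%. The Cdh6 share was 0.640% to 0.836% in Cre(-) and 4.40% to 5.82% in KI kidneys. The summed TPM itself was 741 to 831 in Cre(-), 613 to 767 in KI and 823 to 920 in DKO kidneys.

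**Figure D1:**
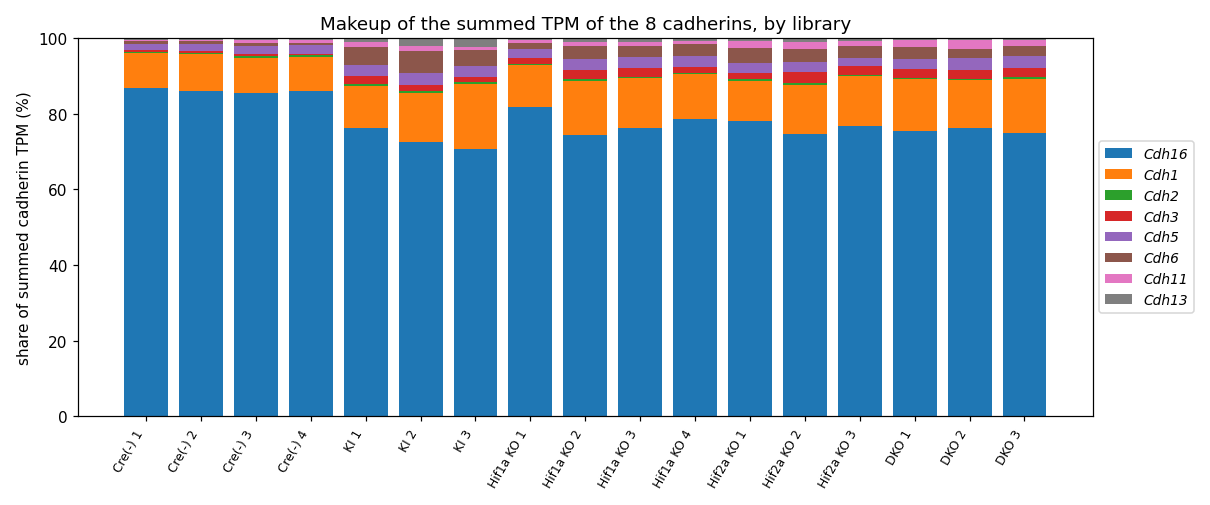
Stacked bars give, for each of the 17 libraries (horizontal axis, by group and replicate), the share in percent of each cadherin in the summed TPM of the 8. Cdh16 fills 85.4% to 86.7% of each Cre(-) bar and 70.5% to 76.1% of each KI bar.

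The first comparison asked how the cadherins differed between kidneys that express PRCC-TFE3 and kidneys that do not. In KI against Cre(-) kidneys, 4 of the 8 members passed the test, where 60.9% of all genes tested did. Cdh6, Cdh3 and Cdh13 rose (3 of 8, beside 31.6% of all genes called higher) and Cdh16 fell (1 of 8, beside 29.3% called lower). The median log2 fold change was 0.21 over the 8 members and 0.03 over all genes tested.

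Cdh16 counted 1139, 1119, 1161 and 1221 CPM in the Cre(-) libraries and 704, 577 and 625 CPM in the KI libraries. All KI values lay below all Cre(-) values. The fold change was 1.83 downward (log2 fold change -0.87 ± 0.09, adjusted p = 8.3e-07). The Cre transgene is a separate copy of the promoter, and the counts here are those of the Cdh16 gene itself.

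Cdh6, a cadherin of the developing kidney and of the proximal tubule, counted 47.7, 39.1, 49.98 and 40.1 CPM in Cre(-) and 190, 195 and 154 CPM in KI kidneys. It rose 4.06-fold without overlap (log2 fold change 2.02 ± 0.17, adjusted p = 9.81e-08). Cdh3, known as P-cadherin, counted 15.6, 15.4, 20.6 and 13.7 CPM in Cre(-) and 45.8, 31.1 and 26.7 CPM in KI kidneys. Here too the groups did not overlap, and the rise was 2.12-fold (1.08 ± 0.21, adjusted p = 3.77e-04). Cdh13, the lipid-anchored T-cadherin, counted 11.7, 8.08, 10.7 and 12.3 CPM in Cre(-) and 15.4, 22.8 and 30.6 CPM in KI kidneys, a 2.15-fold rise (1.10 ± 0.24, adjusted p = 8.38e-04). Its lowest KI library, replicate 1, stood just above the highest Cre(-) library.

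The remaining 4 members did not pass this test. Cdh1, the E-cadherin of epithelial junctions, counted 282, 274, 305 and 311 CPM in Cre(-) and 236, 232 and 325 CPM in KI kidneys, with KI replicate 3 above all Cre(-) libraries and the others below. Its log2 fold change was -0.15 (95% interval -0.41 to 0.11, adjusted p = 0.312). It ranged from -0.32 to -0.06 with 1 library left out, and without KI replicate 3 it was called lower (-0.32, adjusted p = 0.0244). Cdh2, or N-cadherin, counted 6.69 to 12.8 CPM in Cre(-) and 6.89 to 12.9 CPM in KI kidneys (-0.02, interval -0.54 to 0.49, adjusted p = 0.939). Cdh5, the VE-cadherin of endothelial junctions, counted 43.7 to 70.1 CPM in Cre(-) and 47.0 to 53.3 CPM in KI kidneys (-0.13, interval -0.44 to 0.17, adjusted p = 0.443). Cdh11, the OB-cadherin of mesenchymal cells, counted 13.8, 12.2, 20.2 and 18.3 CPM in Cre(-) and 31.1, 19.1 and 15.1 CPM in KI kidneys (0.44, interval -0.08 to 0.95, adjusted p = 0.129), and KI replicate 1 alone lay above all Cre(-) libraries. The Cdh11 value ranged from 0.09 to 0.64 with 1 library left out, and without KI replicate 3 it was called higher (0.64, adjusted p = 0.0346).

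The scale bears on these directions. TMM factors were 0.793 to 0.833 in Cre(-) and 0.974 to 1.06 in KI libraries, and on the log2(TPM + 1) scale the median of all genes tested was 0.38 higher in KI than in Cre(-) kidneys. On that scale Cdh1, Cdh2 and Cdh5 were higher in KI, by 0.30, 0.33 and 0.35, with adjusted p = 0.0389 for Cdh1 and 0.0421 for Cdh5 by limma, whereas relative to the median gene they stood at -0.08, -0.05 and -0.02. Cdh11 passed on log2(TPM + 1), at 0.64 (adjusted p = 0.0365), and did not once the median gene of each library was subtracted on that scale, a step added after seeing the data (0.20, adjusted p = 0.501). The fall of Cdh16 and the rises of Cdh6, Cdh3 and Cdh13 had the same direction and passed the test on both scales.

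**Figure D2:**
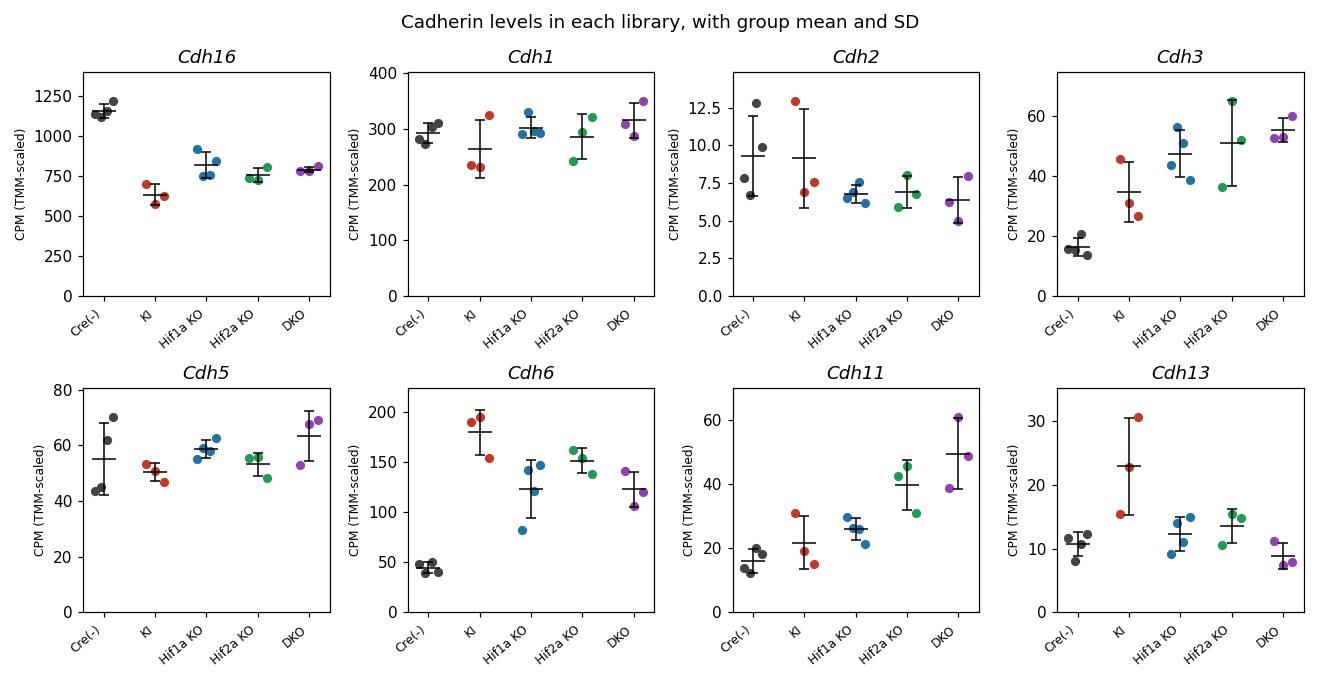
Each panel shows the TMM-scaled CPM of 1 cadherin (vertical axis, from 0) in the 17 libraries by group, with the horizontal mark at the group mean and bars of 1 SD. Cdh16 is highest in Cre(-) (1119 to 1221 CPM), Cdh6 lowest there (39.1 to 49.98 CPM), and Cdh13 highest in KI (15.4 to 30.6 CPM).

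Within the Cre(-) group some members differed between the replicates with and without a flox allele. These are also library numbers 5 and 6 against 7 and 8, so genotype and library order cannot be told apart. The replicates with HIF1af/f had 43.7 and 45.1 CPM of Cdh5 and those without a flox allele 61.8 and 70.1. Cdh11 stood at 13.8 and 12.2 CPM with the flox allele and at 20.2 and 18.3 without it, and Cdh2 at 7.82 and 6.69 against 12.8 and 9.91. Cdh1 (282 and 274 against 305 and 311) and Cdh16 (1139 and 1119 against 1161 and 1221) were also lower with the flox allele. For Cdh3, Cdh6 and Cdh13 the values overlapped. With 2 mice on each side this split was not tested, and its share over all genes was not counted. Against the Cre(-) mice with HIF1af/f alone, Cdh11 was higher in KI (0.75, adjusted p = 0.0377), and against those without a flox allele Cdh5 was lower (-0.38, adjusted p = 0.0117).

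The next comparisons asked what changed when Hif1a or Hif2a was removed together with the activation of PRCC-TFE3. They share the 3 KI libraries, so their values are given side by side. In Hif1a KO against KI kidneys, 2 of 8 members passed the test (5.44% of all genes did), with Cdh16 higher and Cdh13 lower. In Hif2a KO against KI kidneys 0 of 8 passed with edgeR (1.39% of all genes). At an unadjusted p under 0.05 were 4 of 8 members, beside 3262 of 17011 genes. DESeq2 called 1 member, Cdh11, beside 1015 genes over all. In DKO against KI kidneys 3 of 8 passed (12.7% of all genes), with Cdh16 and Cdh11 higher and Cdh13 lower.

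Cdh13 counted 9.20, 14.0, 11.1 and 15.0 CPM in Hif1a KO, 10.5, 15.5 and 14.8 in Hif2a KO, and 11.2, 7.38 and 7.96 in DKO kidneys. All Hif1a KO and DKO values lay below the lowest KI library of 15.4 CPM, while the highest Hif2a KO library stood just above it. The log2 fold change against KI was -0.89 ± 0.23 in Hif1a KO (adjusted p = 0.0384), -0.76 ± 0.25 in Hif2a KO (adjusted p = 0.125) and -1.38 ± 0.26 in DKO kidneys (adjusted p = 0.00518), the last a 2.60-fold fall. The Hif1a KO call was lost without KI replicate 2 (adjusted p = 0.0933), KI replicate 3 (0.163), Hif1a KO replicate 1 (0.108) or Hif1a KO replicate 3 (0.109), whereas the DKO call passed with each of the 6 libraries left out. Without KI replicate 1 the Hif2a KO difference also passed, at -0.98 (adjusted p = 0.0356).

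Cdh11 counted 29.9, 26.2, 26.0 and 21.5 CPM in Hif1a KO, 42.6, 45.6 and 31.0 in Hif2a KO, and 38.8, 60.9 and 48.8 in DKO kidneys. Every DKO library exceeded every KI library, and Hif2a KO replicate 3 fell just under KI replicate 1. The log2 fold change against KI was 0.25 ± 0.24 in Hif1a KO (adjusted p = 0.59), 0.87 ± 0.25 in Hif2a KO (adjusted p = 0.0865) and 1.19 ± 0.25 in DKO kidneys (adjusted p = 0.00947), a 2.27-fold rise. Without DKO replicate 2 the DKO value was 1.01 (adjusted p = 0.0501), and without KI replicate 1 the Hif2a KO value was 1.22 (adjusted p = 0.0154).

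Cdh16 counted 922, 749, 756 and 848 CPM in Hif1a KO, 741, 728 and 809 in Hif2a KO, and 784, 781 and 812 in DKO kidneys. All these values lay above all KI and below all Cre(-) values. The difference from KI was 0.37 ± 0.09 in Hif1a KO (adjusted p = 0.0297), 0.26 ± 0.10 in Hif2a KO (adjusted p = 0.162) and 0.32 ± 0.10 in DKO kidneys (adjusted p = 0.0397). Both calls sat near the threshold. The Hif1a KO call was lost in 4 of 7 fits that left out 1 library (KI replicates 2 and 3, Hif1a KO replicates 1 and 4), with adjusted p up to 0.118, and the DKO call in 5 of 6 (all but KI replicate 1), with adjusted p up to 0.138.

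Cdh6 and Cdh3 passed none of the comparisons with KI in edgeR on all libraries. Cdh6 counted 82.1, 142, 121 and 147 CPM in Hif1a KO and 141, 106 and 121 in DKO kidneys, all under the lowest KI library (-0.54 ± 0.17, adjusted p = 0.0701, and -0.55 ± 0.18, adjusted p = 0.0569), and DESeq2 called both (adjusted p = 0.0239 and 0.0251). Without DKO replicate 1 the DKO value also passed in edgeR (-0.66, adjusted p = 0.0465). In Hif2a KO kidneys Cdh6 counted 162, 154 and 138 CPM (-0.25 ± 0.18, adjusted p = 0.48). Cdh3 counted 43.6, 56.4, 51.1 and 38.6 CPM in Hif1a KO, 36.2, 64.9 and 51.8 in Hif2a KO and 52.8, 53.1 and 60.1 in DKO kidneys. Its difference from KI was 0.46 ± 0.21 (adjusted p = 0.21), 0.56 ± 0.22 (0.182) and 0.68 ± 0.22 (0.0541) in that order, and the DKO libraries alone did not overlap the KI libraries. DESeq2 called Cdh3 in DKO kidneys (adjusted p = 0.0243). Without KI replicate 1, the KI library with the most Cdh3, it passed in edgeR in DKO (0.94, adjusted p = 0.0154) and in Hif2a KO kidneys (0.82, adjusted p = 0.048).

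Cdh1, Cdh2 and Cdh5 passed none of these comparisons on all libraries either. Cdh1 stood at 291 to 330 CPM in Hif1a KO, 242 to 321 in Hif2a KO and 287 to 350 in DKO kidneys, with intervals against KI of -0.07 to 0.46, -0.16 to 0.39 and -0.02 to 0.54 on the log2 scale. In DKO against KI kidneys its difference ranged from 0.17 to 0.43 with 1 library left out, and it passed without KI replicate 3 (0.43, adjusted p = 0.0499). Cdh2, the member with the fewest counts, stood at 6.17 to 7.57 CPM in Hif1a KO, 5.92 to 8.05 in Hif2a KO and 4.95 to 7.96 in DKO kidneys. Its intervals against KI, -0.94 to 0.09, -0.95 to 0.15 and -1.07 to 0.04, were the widest of the 3 genes. Cdh5 stood at 55.1 to 62.6, 48.4 to 55.7 and 53.0 to 69.2 CPM, with intervals of -0.08 to 0.53, -0.24 to 0.40 and 0.01 to 0.65.

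**Figure D3:**
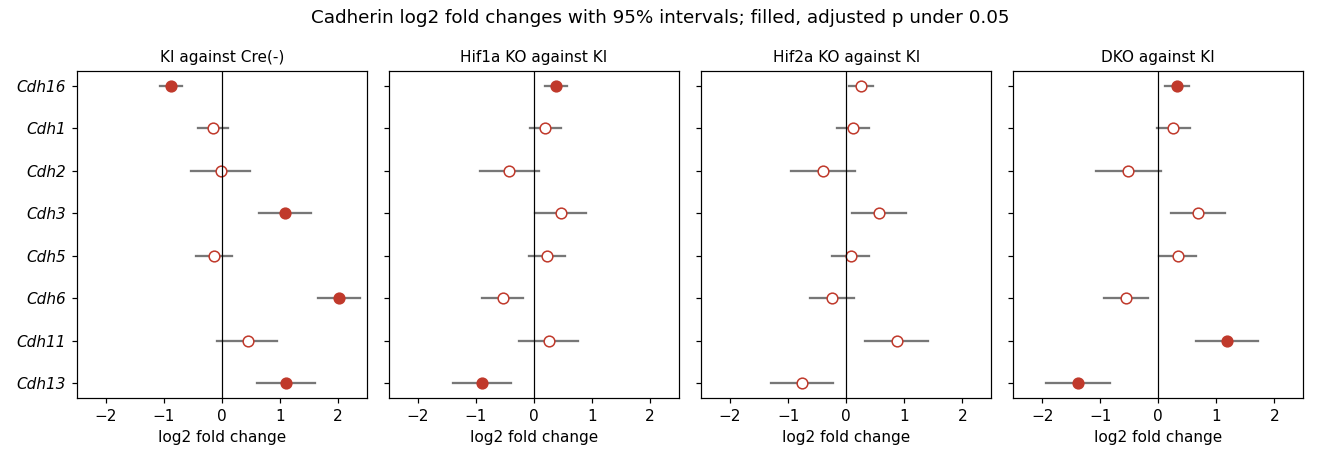
Points give the log2 fold change of each cadherin in 4 comparisons (horizontal axis, 0 marked), with lines for the 95% interval and filled points for adjusted p under 0.05. In KI against Cre(-), Cdh16 lies at -0.87 and Cdh6 at 2.02, and in DKO against KI, Cdh11 lies at 1.19 and Cdh13 at -1.38.

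The knockout groups were also compared with the Cre(-) group, whose 4 libraries these comparisons share with each other and with KI. In each of the 3 comparisons 4 of 8 members passed, where 61.9% (Hif1a KO), 61.9% (Hif2a KO) and 58.3% (DKO) of all genes did. The 4 were Cdh16, Cdh3, Cdh6 and Cdh11 each time. Cdh3 was 1.54 ± 0.20, 1.64 ± 0.21 and 1.76 ± 0.21 higher in Hif1a KO, Hif2a KO and DKO kidneys (adjusted p = 7.64e-06, 6.80e-06 and 4.20e-06). Cdh6 was 1.48 ± 0.16, 1.78 ± 0.17 and 1.47 ± 0.17 higher (adjusted p = 1.33e-06, 3.93e-07 and 3.05e-06). Cdh11 was 0.69 ± 0.22, 1.31 ± 0.24 and 1.62 ± 0.24 higher (adjusted p = 0.0145, 1.91e-04 and 2.99e-05), and the first of these was lost against the Cre(-) mice without a flox allele (0.43, adjusted p = 0.185). Cdh13 passed in none of the 3, with differences of 0.21 ± 0.22, 0.35 ± 0.24 and -0.27 ± 0.24 (adjusted p = 0.431, 0.223 and 0.355).

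Cdh16 differed from Cre(-) kidneys by -0.50 ± 0.08, -0.61 ± 0.09 and -0.55 ± 0.09 on the log2 CPM scale in Hif1a KO, Hif2a KO and DKO kidneys (adjusted p = 7.85e-05, 2.84e-05 and 8.97e-05). On log2(TPM + 1), where the median gene was 0.35, 0.43 and 0.45 higher in these groups, the differences were -0.10, -0.08 and -0.06 and did not pass (adjusted p by limma = 0.393, 0.533 and 0.644). Relative to the median gene on that scale, Cdh16 stood at -0.45, -0.50 and -0.51 in the same order, values that were not tested. The Cdh16 difference between the knockout groups and Cre(-) thus passed on log2 CPM and not on log2(TPM + 1). The difference between KI and Cre(-) passed on both scales.

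Between the knockout groups 0 of 8 members passed in any of the 3 comparisons with edgeR, where 0.429% (Hif1a KO against Hif2a KO), 0.406% (DKO against Hif1a KO) and 0.00588% (DKO against Hif2a KO) of all genes did. In each of these, 1 member had an unadjusted p under 0.05, Cdh11 in the first and second and Cdh13 in the third. Of 17011 genes, 2543, 2207 and 950 did in that order. Cdh11 was 0.94 ± 0.23 higher in DKO than in Hif1a KO kidneys without overlap (adjusted p = 0.0955), and DESeq2 called it (adjusted p = 0.0101), the 1 member that DESeq2 called in the 3 comparisons. In Hif1a KO against Hif2a KO kidneys the Cdh11 difference was -0.62 ± 0.23, again without overlap (adjusted p = 0.216). An interaction term asked whether the difference in DKO kidneys departs from the sum of the single knockouts. It called 0 of 8 members and 0% of all genes with edgeR, and 0 of 8 members with DESeq2. At an unadjusted p under 0.05 with edgeR were 1 of 8 members (Cdh16) and 1013 of 17011 genes. For Cdh13 the interaction was 0.27 (interval -0.47 to 1.02) and for Cdh11 0.07 (interval -0.66 to 0.79).

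In order of mean CPM, Cdh16 fell from Cre(-) through Hif1a KO, DKO and Hif2a KO to KI, and of the neighbouring groups only Cre(-) and Hif1a KO differed by the test. Cdh6 ran from KI through Hif2a KO, Hif1a KO and DKO to Cre(-), and only the last step passed. For Cdh3 the order was DKO, Hif2a KO, Hif1a KO, KI and Cre(-), and again the last step alone passed. Cdh11 ran from DKO through Hif2a KO, Hif1a KO and KI to Cre(-), and Cdh13 from KI through Hif2a KO, Hif1a KO and Cre(-) to DKO, with no step between neighbours past the threshold. No neighbouring groups of Cdh1, Cdh2 or Cdh5 differed by the test.

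For 4 of the 8 members nearly all TPM came from 1 annotated isoform, and for the other 4 it was divided. Cdh1-201, Cdh3-201, Cdh5-201 and Cdh6-201 held a mean of 99.1% or more of their gene's TPM in every group. Cdh16 was divided among several, with Cdh16-204, a coding transcript of 18 exons, at group means of 53.2% to 58.1%, the short Cdh16-214 at 10.7% to 15.4% and Cdh16-202 at 11.0% to 13.4%. Cdh2-202 held 79.7% to 88.9% and Cdh2-201 11.1% to 20.3%. Cdh11-201 held 72.0% to 86.2%, and the retained-intron transcript Cdh11-203 13.7% to 27.9%. Cdh13-201 held 68.6% to 75.2% and the non-coding Cdh13-207 19.0% to 27.5%. Shares are RSEM estimates that divide shared reads, and were not tested.

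The wider junction genes were described from lists. Of 15 further cadherins, 5 passed the filter on low counts, and in KI against Cre(-) kidneys 4 rose, 0 fell and 1 did not pass. Over all genes tested, 31.6% were called higher and 29.3% lower. Of the 5, Cdh17, Cdh19 and Cdh23 had only 2 to 4, 3 to 7 and 1 to 6 counts per Cre(-) library. They passed the filter, with its minimum count of 10, only through groups with Cre. A fall of these genes could hardly have been seen. The 4 rises include Cdh17 and Cdh19, so that count cannot be weighed against the share of all genes. The median of 1.55 (0.03 for all genes) is the value of Cdh19. Cdh4, or R-cadherin, rose most, from 3.16 to 4.18 CPM in Cre(-) to 30.2 to 54.3 CPM in KI kidneys (log2 fold change 3.46 ± 0.36, adjusted p = 8.97e-07), and stood at means of 32.4, 54.3 and 24.9 CPM in Hif1a KO, Hif2a KO and DKO kidneys. Cdh24 rose by 0.59 ± 0.20 (adjusted p = 0.018) and was higher again in DKO than in KI kidneys by 0.69 (adjusted p = 0.0386). It was the 1 of 5 further cadherins called there, where 12.7% of all genes were.

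Of 11 tested catenins and junction partners, 3 rose, 3 fell and 5 did not pass in KI against Cre(-) kidneys (median 0.05). Over all genes tested, 31.6% were called higher and 29.3% lower. Vcl, or vinculin, which links junctions to actin, rose by 1.06 ± 0.12 (adjusted p = 2.64e-06). Nectin3 fell by 1.93 on the log2 scale (standard error 0.13, adjusted p = 1.45e-08), Plekha7 by 0.66 (adjusted p = 1.74e-05) and Nectin1 by 0.37 (adjusted p = 0.00841), the nectins being adhesion proteins that sit beside cadherins. These directions are on TMM-scaled CPM. In mean TPM, Nectin3 stood at 41.85 in Cre(-) and 15.48 in KI kidneys. Plekha7 stood at 31.24 and 25.07, but Nectin1 at 19.25 and 21.52, so its fall did not show there. The summed TPM of the list was 628.5 to 718.1 in Cre(-) and 971.9 to 1021 in KI kidneys. Against KI, 0 of 11 were called in Hif1a KO or Hif2a KO kidneys and 2 of 11, both higher, in DKO kidneys. The shares of all genes called were 5.44%, 1.39% and 12.7% in Hif1a KO, Hif2a KO and DKO kidneys.

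Among desmosome genes, 4 of 7 tested rose, 1 fell and 2 did not pass in KI against Cre(-) kidneys (median 0.58). Of all genes, 31.6% were called higher and 29.3% lower there. The rises included Pkp3 by 1.43 ± 0.12 (adjusted p = 7.97e-08), Dsp by 1.14 ± 0.21 (adjusted p = 2.72e-04) and Pkp2 by 0.58 ± 0.08 (adjusted p = 2.40e-05), and Pkp4 fell by 0.49 on the log2 scale (adjusted p = 9.44e-04). Mean TPM of Pkp4 was nearly level, at 180 in Cre(-) and 178.5 in KI kidneys. Against KI, 1 of 7 was called in Hif1a KO, 0 in Hif2a KO and 2 in DKO kidneys, beside 5.44%, 1.39% and 12.7% of all genes.

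Transcription factors known from epithelial-mesenchymal transition, several of which repress Cdh1, were also listed. In KI against Cre(-) kidneys 4 of 6 tested rose, 0 fell and 2 did not pass (median 0.64). The share of all genes called in this comparison was 60.9%, with 31.6% higher. Snai2 rose from 2.38 to 3.60 CPM in Cre(-) to 11.9 to 13.0 CPM in KI kidneys (2.15 ± 0.23, adjusted p = 8.70e-07), Snai3 by 2.15 ± 0.39 (adjusted p = 1.89e-04), Zeb2 by 0.64 ± 0.12 (adjusted p = 2.33e-04) and Zeb1 by 0.31 ± 0.12 (adjusted p = 0.0387). The Snai2 difference from KI was -0.89 in Hif1a KO (adjusted p = 0.0283) and -0.76 in DKO kidneys (adjusted p = 0.0431). Of the 6 factors, 1, 0 and 1 were called against KI in Hif1a KO, Hif2a KO and DKO kidneys. Of all genes, 5.44%, 1.39% and 12.7% were. Cdh1, as given above, did not pass in any of the 4 comparisons with edgeR on all libraries. By limma on log2(TPM + 1) it was called higher in KI than in Cre(-) kidneys, by 0.30.

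Markers of many kidney cell types moved between the same groups, those of cells that carry a cadherin among them. In KI against Cre(-) kidneys, 31.6% of all genes were called higher and 29.3% lower. In bulk kidney, fewer cells of a type and less RNA per cell cannot be told apart. Of 10 thick ascending limb markers, 9 were lower and 1 higher in KI than in Cre(-) kidneys, with a median of -2.42 beside -0.87 for Cdh16. Their summed level was 6291 to 7895 CPM in Cre(-), 1046 to 1760 in KI, 2382 to 4776 in Hif1a KO, 2205 to 3979 in Hif2a KO and 3015 to 4867 in DKO kidneys. In TPM the limb sums of Hif1a KO (1487 to 2658) and DKO kidneys (1962 to 3003) overlapped those of Cre(-) kidneys (2445 to 3163). The TPM sums of KI (722.8 to 1182) and Hif2a KO kidneys (1464 to 2379) did not. Of 12 proximal tubule markers 11 were lower (median -4.82), with sums of 20800 to 26750 CPM in Cre(-) and 1187 to 1556 in KI kidneys, and all 6 distal convoluted tubule markers were lower (median -2.54). The part of tubule makeup in the Cdh16 difference was not tested.

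Tubular injury and immune markers also moved in KI against Cre(-), the comparison in which Cdh6 rose and 31.6% of all genes were called higher. In the same comparison 6 of 7 tubular injury markers rose and 1 was not called (median log2 fold change 3.75), and their sum was 2041 to 2405 CPM in Cre(-) and 4499 to 5813 CPM in KI kidneys. Of 8 immune markers 7 rose and 1 was not called (median 2.18), with sums of 70.5 to 91.8 CPM in Cre(-), 1391 to 1437 in KI, 906 to 1039 in Hif1a KO, 1069 to 1170 in Hif2a KO and 709 to 996 in DKO kidneys. Most of the immune sum in KI was Cd68, a lysosomal membrane protein used as a macrophage marker, at 3.24 to 5.76 CPM in Cre(-) and 1061 to 1151 CPM in KI kidneys, while the complement gene C1qa stood at 18.3 to 27.5 and 97.5 to 127 CPM. Against KI the median of the 8 immune markers was 0.47, 0.57 and 0.52 in Hif1a KO, Hif2a KO and DKO kidneys. In that order 1, 0 and 1 were called higher and 1, 0 and 1 lower. Of all genes, 5.44%, 1.39% and 12.7% were called in either direction. The lower sums there thus do not describe the immune list as a whole. The part of injury or immune markers in the Cdh6 difference was not tested.

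For Cdh11 the matching list is fibroblast and stroma, with 7 of 10 markers higher, 1 lower and 2 not called in KI against Cre(-) kidneys. Of all genes, 31.6% were called higher and 29.3% lower. The stroma sum ran from 353 to 458 CPM in Cre(-) and 708 to 814 in KI to 853 to 1029 in Hif1a KO, 1063 to 1133 in Hif2a KO and 979 to 1433 in DKO kidneys. Against KI, 3, 3 and 6 of the 10 were called higher in Hif1a KO, Hif2a KO and DKO kidneys and 0 lower. Of all genes, 5.44%, 1.39% and 12.7% were called in either direction. The part of stroma in the Cdh11 difference was not tested. For Cdh5 the list is endothelial, with 10 of 12 markers lower in KI than in Cre(-) kidneys (median -0.67), beside -0.13 for Cdh5, and sums of 710 to 1043 CPM in Cre(-) and 532 to 561 in KI kidneys. In TPM the endothelial sums overlapped, at 330.8 to 463.5 in Cre(-) and 337.7 to 389.3 in KI kidneys, so this difference depends on the scale. Adipocyte markers summed to 58.6 to 177 CPM in Cre(-) kidneys, but to 2103 CPM in KI replicate 2 against 84.3 to 178 in the other KI libraries, and their part in the KI values of Cdh13, which binds adiponectin, was not tested. The call of Cdh13 in KI against Cre(-) passed in all 7 fits with 1 library left out, with adjusted p up to 0.00788.

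**Figure D4:**
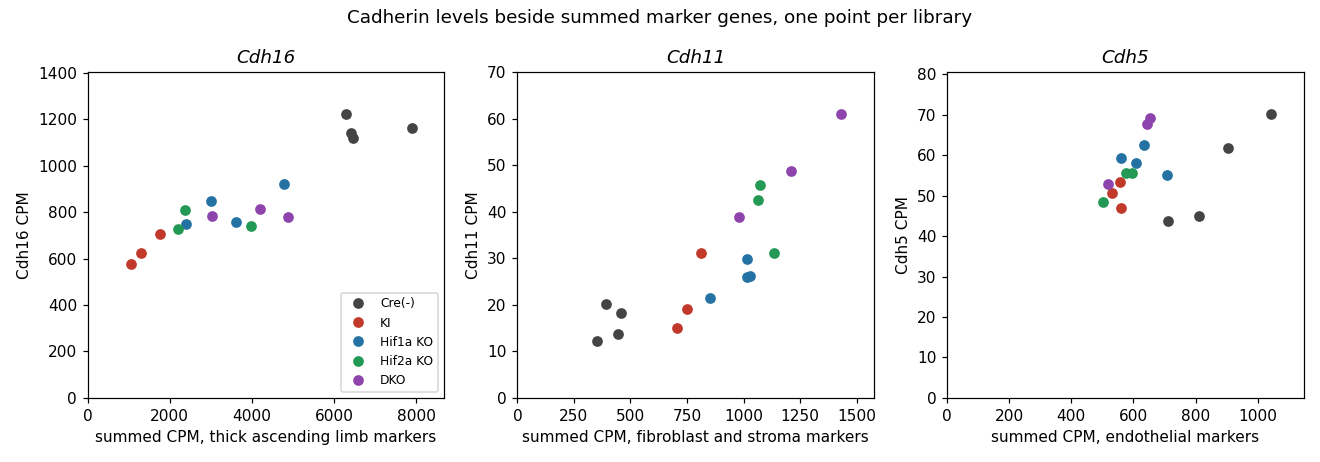
Each point is 1 library, coloured by group, with the summed CPM of a marker list on the horizontal axis and the CPM of a cadherin on the vertical axis (both from 0). By group median, Cdh11 and the stroma sum are lowest in Cre(-) and highest in DKO (single libraries up to 60.9 and 1433 CPM), though single libraries of different groups overlap. For Cdh16 the KI libraries are at the lower left (1046 to 1760 CPM of limb markers).

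Over the 17 libraries, r of log2 CPM between Cdh11 and the stroma sum was 0.85, and it was 0.87 over the 13 libraries with Cre. Between Cdh16 and the thick ascending limb sum r was 0.89 over 17 and 0.84 over 13 libraries. Over the 17 libraries other lists followed Cdh16 as closely, with r = 0.93 for distal convoluted tubule, 0.92 for podocyte, 0.91 for proximal tubule, 0.91 for intercalated cell and -0.91 for immune markers, and over the 13 their r was 0.74, 0.64, 0.52, 0.63 and -0.73. Cdh6 had r = 0.96 with the immune sum, -0.96 with the proximal tubule sum and 0.83 with the injury sum over 17 libraries, and 0.76, -0.69 and -0.49 over 13. Cdh13 had r = 0.47 and 0.41 with the adipocyte sum over 17 and 13 libraries. Over the 13 it stood at -0.93 with the thick ascending limb, 0.89 with the immune, -0.87 with the distal convoluted tubule and -0.85 with the stroma sum (-0.81, 0.40, -0.59 and -0.05 over 17). Between Cdh5 and the endothelial sum r was 0.34 and 0.67. Among the members themselves, Cdh16 and Cdh6 ran opposite to each other (r = -0.94 over 17 libraries, -0.75 over 13), and Cdh11 and Cdh13 did so more strongly with the Cre(-) group left out (-0.37 and -0.81). These are descriptions over libraries that share the group structure, and in KI kidneys the immune sum is mostly Cd68.

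The genes with the most similar pattern over the 17 libraries, among 14711 candidates with a mean TPM of at least 1, were taken 3 per member by r of log2 CPM. For Cdh16 they were Cldn10 (r = 0.966), itself one of the limb markers above, Glb1 (0.966) and Cyp2j5 (0.964). For Cdh6 they were Tmpo (0.984), Afap1 (0.982) and Sytl2 (0.980), and for Cdh3 Lpcat4 (0.973), Mex3a (0.972) and Nkd2 (0.971). Cdh11 ran with Cx3cl1 (0.962), Gpr153 (0.960) and Cxcl14 (0.950), and these stayed at 0.951 or more over the 13 libraries with Cre. Cdh13 ran with Iqcd (0.925), Zfp110 (0.921) and AI854703 (0.912). Cdh5 had Erg (0.824), Sox7 (0.813) and Rerg (0.812), of which Erg and Sox7 are transcription factors of endothelial cells. Cdh1 had Bicdl2 (0.816), Cnksr1 (0.804) and Shroom3 (0.786), and Cdh2 had AU022252 (0.773), Olfr1385 (0.723) and Gm4691 (0.717), the lowest values of the 8.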

How the data were processed

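RNA-seq of kidneys from 17 mice was analysed from the 2 tables of the series. Per the paper's methods and the submitters' processing notes, reads were trimmed with Trim Galore 0.6.6 and cutadapt 2.5, aligned with STAR 2.7.9a, and quantified with RSEM; hg38 is named for alignment and hg38 or GRCm38 for annotation, but the tables list mouse transcripts. The authors deposited expected counts (not normalized) and TPM for each transcript. Of 119353 transcripts, 116770 (97.8%) matched GENCODE M21 without version numbers, holding 99.04% to 99.24% of each library's counts. Values were summed over 35971 genes, and summed expected counts were rounded. Columns of other samples numbered 0.

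Groups were compared with the quasi-likelihood F-test of edgeR 4.0.16 in R 4.3.3, with TMM factors, a minimum count of 10 in filterByExpr, 1 coefficient per group over all libraries, and Benjamini-Hochberg adjustment over 17011 genes at 0.05. Alternatives were DESeq2 1.42.0, its size factors, no count filter, a fit of 2 groups, a replicate block, limma 3.58.1 on log2(TPM + 1) and log2(TPM + 0.1), either pair of Cre(-) mice, a floor of 1 on the absolute log2 fold change, and each library left out. The interaction term and the median-centred TPM fit were added after the data were seen. The fits were tested on simulated data. Genes beyond the 8 were named by rule: 3 per member by r of log2 CPM (prior count 2), and at most 4 called genes per junction or transcription factor list by absolute log2 fold change with a mean TPM of at least 1. Figures used Python 3.11.15, pandas 2.3.3 and matplotlib 3.10.9. Replicates are separate mice. The members and lists were chosen with earlier results of these data known. A floor of 3 counts corresponds to 0.117 to 0.206 CPM and covers counting error only.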

Additional observations from a re-analysis of the deposited data

Results flagged for a closer look

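In groups of 4 mice, a library was singled out where its distance to the nearest other library was a larger part of the group's range than Dixon's 95% critical value allows. Of 84 such groups examined, over the members, marker sums and named genes, 6 had one, and chance alone gives about 1 in 20.

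Cdh1 stood at 330.1 CPM in Hif1a KO replicate 2, above 291.2 to 295.7 CPM in the others. The summed thick ascending limb markers stood at 7895 CPM in Cre(-) replicate 3 (others 6291 to 6473), and the summed intercalated cell markers at 606.6 CPM in the same library (others 769.4 to 787.9). Fibroblast and stroma markers summed to 852.9 CPM in Hif1a KO replicate 4 (others 1014 to 1029). In Hif1a KO replicate 1, Nectin1 stood at 49.05 CPM (others 41.64 to 42.69) and Tfe3 at 45.64 CPM (others 54.57 to 55.71).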

How the results depend on the processing

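In KI against Cre(-) kidneys, 7 members in place of 4 had a higher mean in KI with TPM in place of CPM. Limma on TPM, with a pseudocount of 1 as with one of 0.1, called 7 of 8 members in place of 4. Of the 17011 genes tested it called 11301 and 11487 in place of 10362. In both fits Cdh1 turned to 0.30, Cdh2 to 0.33 and 0.42, and Cdh5 to 0.35 and 0.37. Against the Cre(-) mice with the Hif1a flox allele alone, Cdh2 turned to 0.34 and Cdh5 to 0.19. With TPM centred on the median gene of each library, a fit chosen after seeing the data, the count of members called stayed within 1.5 times the main count. Leaving out 1 library gave 4 to 6 members and 9442 to 9993 of all genes called. There Cdh2 ranged from -0.36 to 0.17 and Cdh5 from -0.23 to 0.00.

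In Hif1a KO against KI kidneys the 2 calls became 1 without a count filter, 0 in the fit of 2 groups, 1 on log2(TPM + 1), 0 on log2(TPM + 0.1) and 0 at an absolute log2 fold change of 1 or more, and 0 to 2 with 1 library left out. Over all genes the 925 calls became 711, 246, 631, 552 and 231 in that order, and 273 to 1169 with 1 library left out. With the replicate block the 2 member calls became 0 (Cdh16 adjusted p = 0.0611, Cdh13 0.0544), while all genes called went from 925 to 479. In Hif2a KO against KI kidneys 0 calls became 1 with DESeq2 and 0 to 3 with 1 library left out. Over all genes the 236 calls became 1015 and 13 to 857. In DKO against KI kidneys 3 calls became 5 with DESeq2, 1 in the fit of 2 groups, and 1 to 4 with 1 library left out. Over all genes the 2164 calls became 2897, 1028 and 722 to 2291. At an absolute log2 fold change of 1 or more, Hif1a KO against Cre(-) kept 2 calls of 4, and 4425 of 10537 over all genes. In DKO against Hif1a KO kidneys 0 calls became 1 with DESeq2 and 1 in the fit of 2 groups, while the 69 calls over all genes became 384 and 164. The cause of these changes was not tested, and the fits of 2 groups and those without 1 library also held fewer samples.

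Same-numbered libraries are different mice. The correlation of their deviations from the group means had a median of -0.03 over 31 pairs (0.01 for different numbers), and 3 of 17 libraries matched best with their own number, so the replicate block was not a paired design. It moved no other count of member calls by over 1.5 times. All genes called in the 3 comparisons with KI ranged from 231 to 1665 for Hif1a KO, 2 to 1015 for Hif2a KO and 689 to 2897 for DKO over the alternatives. Cdh2, at 4.95 to 12.9 CPM, has the fewest counts of the 8.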
